A study of Ovis aries with 2 samples.

Results

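CD3-negative natural killer cells are described here as they occur in dissociated anterior pituitary of Hu sheep, in 1 single-cell RNA library at 3 months of age (3M) and 1 at 6 months (6M). They were chosen by a gate on deposited counts of unique molecular identifiers (UMIs, 1 per captured transcript). A barcode needed at least 500 genes and 1000 UMIs, 0 UMIs of CD3E, CD3D and CD3G, and a UMI of at least 2 of the 5 genes GNLY, KLRD1, NKG7, XCL1 and CTSW. PRL had to stay below 25% of its UMIs, GH below 10%, and LHB and the summed C1QA, C1QB and C1QC each below 0.3%. The gate held 184 of 29621 kept barcodes, 53 of 16368 in the 3M library and 131 of 13253 in the 6M library. They were set against CD3-positive cells of the same library, which carried at least 2 of the 3 CD3 genes and met the same limits on depth, hormones and C1Q. Neither age had a second library, so no test was made, age and library cannot be told apart, and every interval covers counting error only.

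Natural killer cells are lymphocytes of the innate immune system that kill infected or transformed cells without a rearranged antigen receptor. They release granules holding perforin, granzymes and granulysin, and they read activating and inhibitory receptors, many of them lectin-like receptors encoded side by side in the natural killer gene complex. Cytotoxic T cells share the granule genes and part of the receptors, so the CD3 chains are what usually separates the lineages.

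The study compared the gland at these ages around puberty. Anterior lobes were dispersed with collagenase, red cells were lysed, and no sort for immune cells is stated. Neither how many animals entered a library nor their sex is stated for these samples. The 3M library held 18961 barcodes and 142479651 UMIs, the 6M library 15031 barcodes and 175239612 UMIs, and 81 barcode sequences occurred in both libraries. Of these, 0 were gate cells of the 3M library, 1 was a gate cell of the 6M library and 3 were CD3-positive cells of the 6M library.

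Gate cells made up 0.324% of kept barcodes at 3M (exact Clopper-Pearson 95% interval 0.243 to 0.423%) and 0.988% at 6M (0.827 to 1.17%). CD3-positive cells made up 0.287% (0.211 to 0.382%, 47 cells) and 5.21% (4.84 to 5.61%, 691 cells). At 3M the gate thus held about as many cells as the CD3-positive group, while at 6M CD3-positive cells were the larger group. Among barcodes within the other limits that carried at least 2 of the 5 markers, 65.4% of 81 had 0 CD3 UMIs at 3M and 17.8% of 734 at 6M. In the 3M library that share was 51.1% from 1000 to below 3000 UMIs, 88.9% from 3000 to below 6000 and 66.7% at 6000 or more. In the 6M library it was 19.0%, 17.8% and 14.4%, so cells with the markers and no CD3 were the smaller part at every depth there.

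The gate cells were shallow beside the endocrine cells around them. Their median depth was 3326 UMIs at 3M and 2656 at 6M, against 2383 and 3016 in CD3-positive cells and 17372 and 17676 in barcodes with PRL at 25% or more and no CD3 (2211 and 5372 barcodes). These PRL-high barcodes, which should lack lymphocyte genes, serve below as the background that free RNA and mixed droplets give. The gate cells together held 206663 UMIs at 3M and 613276 at 6M, with up to 12229 and 50946 in 1 cell. Cells above 10000 UMIs numbered 3 and 11 and held 16.7% and 41.4% of the gate's UMIs. At 6M a summed value therefore leans on few cells.

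**Figure D1:**
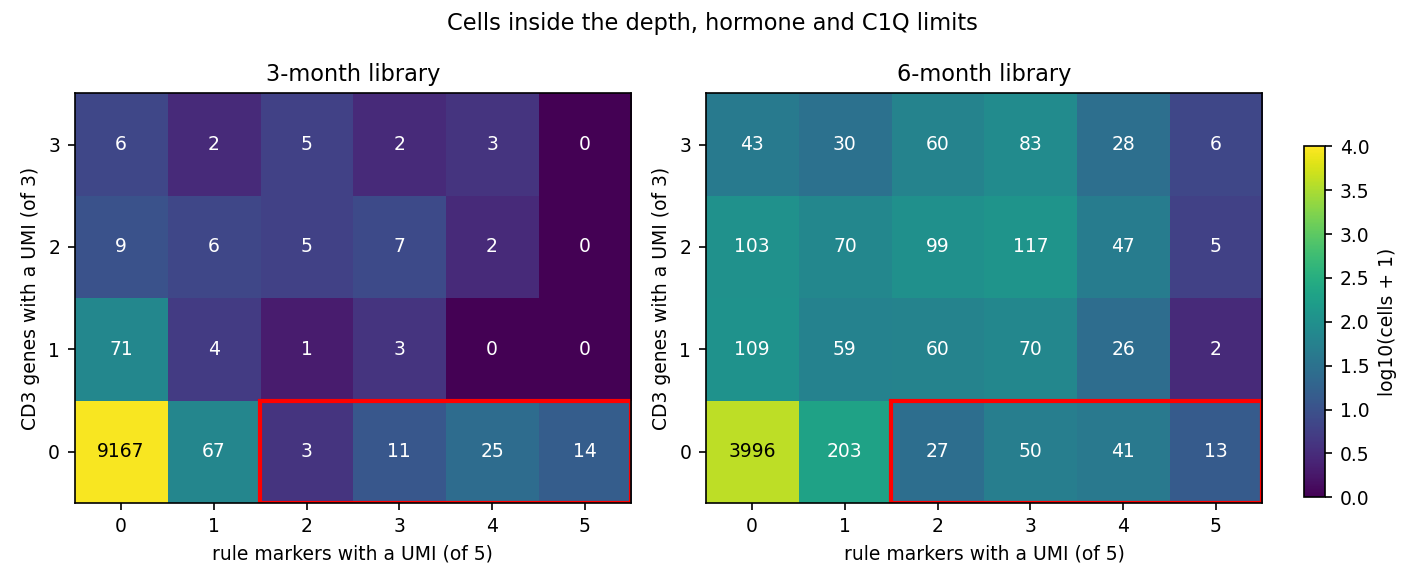
Number of barcodes by CD3 genes detected (vertical axis, 0 to 3) and by rule markers detected (horizontal axis, 0 to 5), 1 panel per library, for barcodes within the depth, hormone and C1Q limits. The box marks the gate, 53 cells at 3M and 131 at 6M; cells with 3 or more markers fill most of it, and CD3-positive cells with markers are abundant only at 6M.

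Most gate cells lay well inside the marker limit. With 2, 3, 4 and 5 markers there were 3, 11, 25 and 14 cells at 3M, and 27, 50, 41 and 13 at 6M. Just outside, 67 and 203 CD3-negative barcodes carried 1 marker. The hormone limit was close only at 6M, where the highest PRL share inside was 24.0% and the lowest among the 21 barcodes kept out by PRL alone was 25.4%. At 3M these were 4.93% and 33.4%, with 2 barcodes kept out by PRL alone. The C1Q limit kept out 12 and 14 barcodes, with highest values inside of 0.0426% and 0.289% and lowest outside of 0.303% and 0.662%.

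Each rule marker was then read in CD3-negative cells chosen by at least 2 of the other 4 markers, so that the marker itself did not choose the cells. CTSW, the protease cathepsin W of cytotoxic lymphocytes, had a UMI in 96.0% of 50 such cells at 3M and 91.9% of 111 at 6M. KLRD1, the CD94 chain that pairs with NKG2 receptors, was found in 82.7% of 52 and 53.5% of 127. XCL1, the chemokine lymphotactin, was found in 82.4% of 51 and 66.1% of 121. NKG7, a granule membrane protein, was found in 73.6% of 53 and 64.0% of 125, and GNLY, the pore-forming granulysin, in 58.5% of 53 and 41.9% of 117. CTSW, XCL1, NKG7 and KLRD1 thus recurred in most cells that they had not selected, KLRD1 less widely at 6M. GNLY did so at 3M only. In CD3-positive cells, which needed no marker, the shares ran from 10.6% (XCL1) to 57.4% (CTSW) at 3M and from 24.7% (XCL1) to 67.4% (CTSW) at 6M. In CD3-positive cells with at least 2 of the 5 markers NKG7 was found in 87.5% and 76.6%, and CTSW in 95.8% and 95.3%. There XCL1 was found in 20.8% and 36.2%, KLRD1 in 41.7% and 37.5%, and GNLY in 33.3% and 40.4%. Each marker helped to choose those cells, so these shares are values only. In PRL-high barcodes no marker exceeded 0.543% at 3M or 2.51% at 6M, although those barcodes are deeper.

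A set of 5 genes outside the rule was read cell by cell. They were chosen after their values were seen, for being frequent in the gate and rare in CD3-positive cells, so that contrast is a description: KLRF1, FCER1G and the unnamed genes LOC105614844, LOC105613001 and LOC114113674. KLRF1 is the lectin-like activating receptor NKp80 in humans, and FCER1G is the signalling chain that carries CD16 and natural cytotoxicity receptors. The 3 unnamed genes lie in a run of 18 protein-coding genes between MAGOHB and GABARAPL1 in the reference gene table, in which KLRK1 and KLRD1 also lie, and the files give them no name or role.

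KLRF1 had a UMI in 30 of 53 gate cells at 3M (56.6%) and in 39 of 131 at 6M (29.8%). In CD3-positive cells it had a UMI in 0 of 47 and in 2 of 691, and in PRL-high barcodes in 2 of 2211 and 3 of 5372. KLRF1 transcripts were thus close to absent from both comparison groups. Thinned to 1000 UMIs, 17.0% and 7.63% of gate cells still had one. FCER1G had a UMI in 44 gate cells at 3M (83.0%) and 53 at 6M (40.5%), against 0 CD3-positive cells at 3M and 36 (5.21%) at 6M. The last share was close to that of the deeper PRL-high barcodes, 4.93% at 3M and 5.12% at 6M. After thinning to 1000 UMIs it was 1.88% against 0.503% in PRL-high barcodes of the 6M library, and the gate's shares were 52.8% and 22.1%. FCER1G thus stood far above both groups in the gate, and few 6M CD3-positive cells carried it.

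The unnamed genes followed the same pattern. LOC105614844 had a UMI in 71.7% of gate cells at 3M and 39.7% at 6M, LOC105613001 in 58.5% and 39.7%, and LOC114113674 in 47.2% and 32.8%. In CD3-positive cells all 3 were at 0 at 3M, which with 47 cells allows an upper 95% bound of 7.55% each, and at 0.724%, 1.01% and 0.145% at 6M. All 5 genes were thus less frequent in the 6M gate than in the 3M gate.

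Counted per cell, 2, 4, 10, 13, 15 and 9 gate cells of the 3M library carried 0, 1, 2, 3, 4 and 5 of the genes. In the 6M library the counts were 52, 11, 14, 24, 22 and 8. At least 2 genes were thus present in 47 of 53 cells (88.7%) at 3M and in 68 of 131 (51.9%) at 6M, and none in 39.7% of the 6M gate. Of CD3-positive cells, 0 of 47 and 5 of 691 (0.724%) carried at least 2, and of those CD3-positive cells that carried at least 2 rule markers, 0 of 24 and 5 of 445 (1.12%). Cells with exactly 1 CD3 gene and at least 2 rule markers resembled the CD3-positive cells, with 0 of 4 and 1 of 158. PRL-high barcodes reached 2 of 2211 and 4 of 5372.

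**Figure D2:**
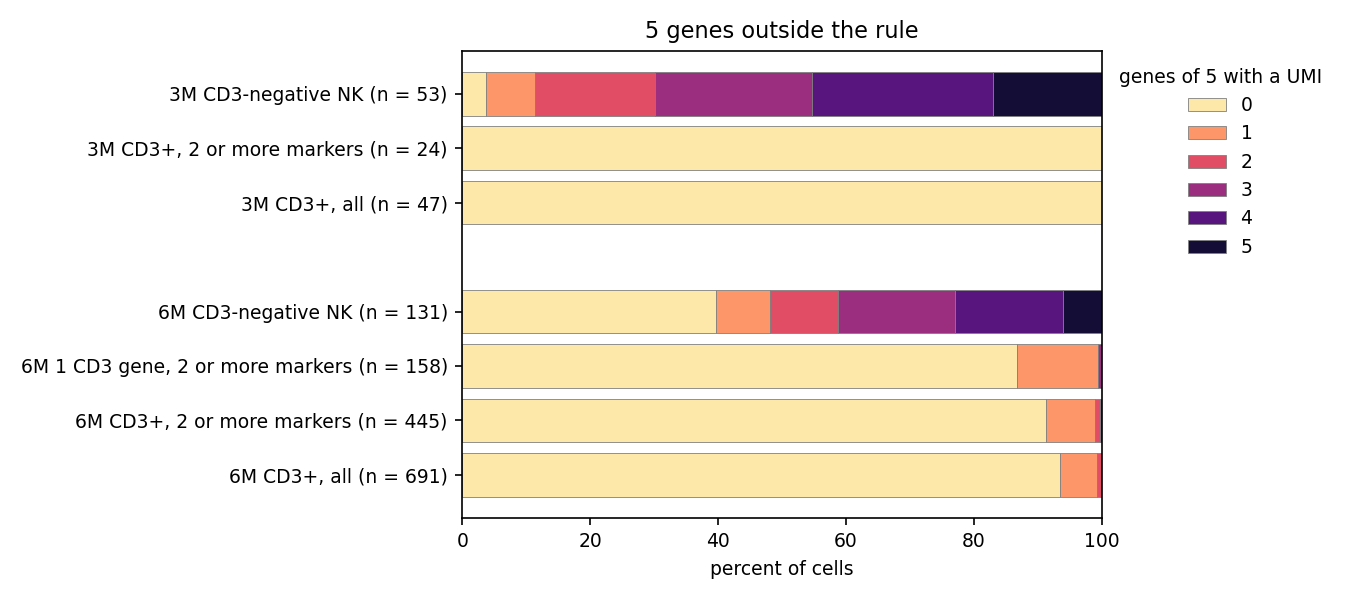
Share of cells (percent, stacked to 100) that carry 0, 1, 2, 3, 4 or 5 of the genes KLRF1, FCER1G, LOC105614844, LOC105613001 and LOC114113674, for the gate and the comparison groups of each library. The 3M gate has at least 1 of them in 96.2% of cells and the 6M gate in 60.3%, while CD3-positive cells are nearly all at 0.

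As a share of all kept barcodes, gate cells with at least 2 of the 5 genes made up 0.287% at 3M (0.211 to 0.382%) and 0.513% at 6M (0.399 to 0.650%). Gate cells with none of them made up 0.392% at 6M, and at 3M only 2 such cells were present. The larger 6M gate thus held both more cells with these genes and a second portion without them. The portion without them was shallower, with a median of 2107 UMIs against 3280.5 in 6M gate cells with at least 2, and the part of depth in this division was not tested.

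The 2 portions of the 6M gate also differed in genes that did not divide them, all named after their values were seen. IL2RB, the shared receptor chain for interleukins 2 and 15, had a UMI in 30.8% of the 52 cells with none of the 5 genes and in 80.9% of the 68 with at least 2. After every cell was thinned to 1000 UMIs these shares were 19.2% and 45.6%. KLRK1, the activating receptor NKG2D, was found in 42.3% and 80.9%, and CCL5, an inflammatory chemokine, in 80.8% and 97.1%. LTB, the cytokine lymphotoxin beta, was found in 15.4% and 54.4% (thinned 3.85% and 32.4%). LOC101123578, a neighbour of NCR1 in the reference table, was found in 0 and 47.1%. Of 20 natural killer markers outside the rule, KLRF1 and FCER1G not counted, 18 were more frequent in the cells with at least 2 of the genes. The other 2, TBX21 (25% and 19.1%) and NCAM1 (3.85% and 1.47%), were more frequent in those with none. The cells with at least 2 were deeper (median 3280.5 against 2107 UMIs). No share over all genes was taken, so this count has no baseline and is not read as a result. At 3M only 2 gate cells had none, so that library allows no such reading. The rule markers XCL1 (38.5% and 91.2%) and NKG7 (40.4% and 83.8%) helped to choose the cells and are given as values only.

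T cell genes were mixed. Of 20 list members in the files, 12 were more frequent in the cells with none of the 5 genes and 5 in those with at least 2. The remaining 3 had no UMI in either, and this count has no share over all genes beside it. TCF7, a transcription factor shared by T cells and early natural killer cells, was in 0 and 10.3%, and CD27, a co-stimulator, in 1.92% and 8.82%. CD8B, a chain of the CD8 co-receptor, had a UMI in 36.5% of the cells with none of the 5 genes and in 5.88% of those with at least 2 (thinned 25% and 4.41%). BCL11B, a transcription factor that holds T cell identity, was found in 17.3% and 1.47%, CD6, a T cell surface receptor, in 11.5% and 1.47%, and LAT, the linker of T cell receptor signalling, in 25% and 10.3%. LOC101110848, which the reference table lists as a constant-region gene segment beside DAD1, was found in 50% and 22.1% (thinned 34.6% and 7.35%). GNLY was found in 67.3% and 32.4% (thinned 55.8% and 25%). It is a rule marker that helped to choose the cells, so it is given as values only. At 3M, where 88.7% of the gate carried at least 2 of the 5 genes, 80.9% of those cells also carried a T cell receptor constant transcript, so the values leave the label unsettled for a single cell. The 6M cells with none of the 5 genes are called gate cells here, with no other name.

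T cell receptor constant genes were read as a further check, since 8 constant-region entries are in the files. At least 1 of them had a UMI in 77.4% of gate cells at 3M and 84.7% at 6M, against 100% and 96.4% of CD3-positive cells. Per 1000000 UMIs of the group their sum was 745 and 644 in the gate and 3537 and 2129 in CD3-positive cells. PRL-high barcodes had one in 0.317% and 2.64%. Most gate cells thus carried such transcripts, at a lower summed level than T cells. Within the 6M gate the share was 86.5% in cells with none of the 5 genes, 90.9% with 1 and 82.4% with at least 2, and the sum was 936, 243 and 557. These shares were not thinned, and the classes differed in depth, with medians of 2107, 2477 and 3280.5 UMIs. The sums were not in order of the classes. The entries differed among themselves: LOC105613374, beside PRSS2 and EPHB6, was found in 69.8% and 58.0% of gate cells against 87.2% and 81.2% of CD3-positive cells, and LOC101110848 in 20.8% and 33.6% against 66.0% and 73.8%.

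For the 6M library, summed counts of the gate were compared with those of CD3-positive cells as CPM, UMIs per 1000000 of the TMM effective library size. A gene was measured with at least 100 counts over both groups, and it was called when it lay at least 2-fold apart and reached 0.5 of the all-barcode CPM in the group where it was higher. Of 4425 genes measured, 98 (2.21%) were called higher and 189 (4.27%) lower in the gate, and the median log2 ratio over all of them was -0.08. Ratios below are log2 of gate over CD3-positive CPM with exact conditional binomial 95% intervals. Lists of genes are counted by the 2-fold limit alone, which 2.28% of all measured genes passed as higher and 4.43% as lower.

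Receptors and adaptors were among the called higher genes. Of the unnamed genes above, LOC105614844 had 134 UMIs in the gate and 8 in CD3-positive cells, and LOC105613001 had 95 and 10. FCER1G had 134 UMIs in the gate and 128 in CD3-positive cells, 233 against 39.5 CPM, a log2 ratio of 2.56 (2.20 to 2.93). CD244, the receptor 2B4, had 68 and 94 UMIs, 118 against 29.0 CPM, a log2 ratio of 2.03 (1.56 to 2.50). FCGR3A, the Fc receptor CD16, had 60 and 147 UMIs, 105 against 45.3 CPM (log2 1.21, 0.75 to 1.65), and SH2D1A, the adaptor that serves 2B4, 289 and 815 UMIs, 504 against 251 CPM (log2 1.00, 0.80 to 1.20). Of the 12 measured members of the receptor list these 4 were at least 2-fold higher, and PDCD1, an inhibitory receptor of activated T cells, was lower (log2 -2.55). KLRK1 lay at 0.80, and NCR3 at 0.25 and HCST, the adaptor of NKG2D, at 0.10 were close to even. These values sum all gate cells, those with none of the 5 genes included, and the median of the list was 0.32. With only gate cells that had a KLRF1 UMI it was 0.93, with 5 of 12 members higher and 2 lower. Over all 4075 genes measured in that reading 124 were higher and 550 lower.

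Among chemokines, cytokines and cytokine receptors, 1 receptor gene lay past 2-fold higher and 1 past 2-fold lower. IL2RB had 215 and 493 UMIs, 375 against 152 CPM, a log2 ratio of 1.30 (1.06 to 1.54). IL21R, the interleukin 21 receptor, lay at -2.32 with 9 and 254 UMIs. CCL5 lay at 0.42, IFNG, the interferon of natural killer and T cells, at 0.74, and IL7R, the interleukin 7 receptor, at -0.53, all inside 2-fold. Of the 11 measured members of this list, 1 was thus higher and 1 lower.

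Granule genes hardly separated gate and T cells at 6M, with a median log2 ratio of -0.10 over 12 measured members. PRF1, the pore protein perforin, had 131 against 100 CPM (log2 0.38), and GZMA, a granzyme, 105 against 135 CPM (log2 -0.37). The exception was GZMK, a granzyme typical of memory T cells, with 1 UMI in the gate and 166 in CD3-positive cells (log2 -4.88, -10.19 to -2.38). The transcription factors EOMES (log2 0.52) and TBX21 (log2 -0.13), which drive cytotoxic lymphocyte fate, were inside 2-fold too. Of 17 measured transcription factors, IRF8 was higher (log2 1.08) and BACH2 lower (log2 -1.27); without cells above 10000 UMIs both lay inside 2-fold, at 0.49 and -0.65.

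Of 20 T cell list members in the files 11 were measured, most of them through their counts in CD3-positive cells, and 9 of those lay at least 2-fold lower. That count therefore follows the count limit as well as the cells. CD4, the helper T cell co-receptor, had 0 UMIs in the gate and 129 in CD3-positive cells, at least a log2 difference of -2.93 against a floor of 3 counts over the gate. ICOS, a co-stimulator of activated T cells, had 5 and 435 UMIs (log2 -3.94, -5.57 to -2.71), CD2, an adhesion receptor, 9 and 257 (log2 -2.34), and LAT 25 and 517 (log2 -1.87). BCL11B lay at -2.01, CD6 at -1.69, CD8B at -1.68, CD5 at -1.35 and CD27 at -1.03. CD8A lay inside 2-fold, at -0.92. Absence of CD3 was part of the rule, so lower genes of the same lineage follow the choice of cells and are given as values only.

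Of 14 measured cell cycle genes 7 lay at least 2-fold lower in the 6M gate, with a median log2 ratio of -1.04. Members can reach the count limit through CD3-positive cells, which held 3764072 UMIs against 613276 in the gate. The count and the median are therefore not read as a result. PCLAF, a replication factor, lay at -2.55, UBE2C, a ubiquitin enzyme of mitosis, at -2.95 and MKI67, the proliferation marker Ki-67, at -1.16. Cells above 10000 UMIs were 69 of 691 CD3-positive cells and held 43.4% of their UMIs. Without such cells 5 members were measured and 1 was lower, with a median of -0.66, and without Scrublet-marked barcodes 9 of 14 were lower. MKI67 lay at 0.40 when each cell counted equally. At least 3 list members were found in 21.4% of gate cells and 38.1% of CD3-positive cells, whose depths differ. Residency genes (0 of 6 either way, CD69 at 0.15 and CXCR6 at -0.45) and interferon response genes (0 of 11, median -0.40) stayed inside 2-fold.

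Further genes that met the naming rule at 6M were HSPB1, a small heat shock protein (log2 1.98), TCEAL1 (1.63) and RAB32, a small GTPase (1.64). TNFRSF9, the co-stimulator 4-1BB, was lower (log2 -1.94), as was ITGB7, the integrin chain of gut-homing T cells (-2.37). RRAD (1.98) and CRYAB (1.44) lay higher, but 49.9% of the CRYAB counts came from 1 cell, and among gate cells with a KLRF1 UMI alone both reversed, to -0.89 and -0.83. When T cell receptor constant genes also had to be at 0, which left 20 cells, CD244 lay at 0.49, IL2RB at 0.37 and SH2D1A at 0.11, while FCER1G lay at 2.32.

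The rule markers were then required on both sides. Against the 445 CD3-positive cells of the 6M library with at least 2 of the 5 markers, 3518 genes were measured, 62 (1.76%) called higher and 139 (3.95%) lower, and 1.79% and 4.15% passed the 2-fold limit alone. FCER1G had 233 against 51.7 CPM (log2 2.17, 1.81 to 2.54), CD244 118 against 39.4 CPM (log2 1.59), and ACKR3, a scavenging chemokine receptor, 166 against 29.6 CPM (log2 2.48, 2.02 to 2.95). IL2RB lay at 1.17 and FCGR3A at 1.01, whereas PRF1 (-0.06) and CCL5 (-0.02) were even. CD8B lay at -2.01 and LAT at -1.97, and GZMK lay at -5.19 with 1 and 144 UMIs. FCER1G, CD244, IL2RB and FCGR3A thus stayed past 2-fold, FCGR3A only just, and it lay at 0.79 without Scrublet-marked barcodes. SH2D1A, at 1.00 against all CD3-positive cells, lay inside 2-fold here (0.78). KLRK1 (0.45), TYROBP (0.06) and HCST (-0.01) did not reach it either. CST7, another natural killer marker outside the rule, was lower (-1.14).

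In the 3M library the gate was set against 47 CD3-positive cells, over far fewer measured genes. Of 408 measured, 40 (9.80%) were called higher and 15 (3.68%) lower in the gate, and the 2-fold limit alone gave 10% and 3.92%. FCER1G had 151 UMIs against 0, or 699 CPM, at least a log2 difference of 5.12 against a floor of 3 counts. GNLY, a rule marker, had 1955 and 30 UMIs, 9056 against 201 CPM (log2 5.49), and is given as a description only.

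CCL5 had 1279 UMIs in the 3M gate and 137 in CD3-positive cells, 5925 against 920 CPM, a log2 ratio of 2.69 (2.43 to 2.95). IL2RB had 186 and 31 UMIs, 862 against 208 CPM (log2 2.05, 1.50 to 2.65), and SH2D1A 166 and 27, 769 against 181 CPM (log2 2.08, 1.49 to 2.73). KLRK1 lay at 1.85 and HCST at 0.72. Of 22 natural killer markers outside the rule 5 were measured at 3M, and FCER1G, KLRK1 and IL2RB reached the count limit through the gate, so no count or median over them is given. At 6M the values were 0.42 for CCL5, 1.30 for IL2RB, 1.00 for SH2D1A, 0.80 for KLRK1 and 0.10 for HCST. With T cell receptor constant genes also at 0 (12 cells) SH2D1A lay at 0.87 and IL2RB at 1.10.

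IL7R was the main lymphocyte gene on the lower side at 3M. It had 32 UMIs in the gate and 116 in CD3-positive cells, 148 against 779 CPM, a log2 ratio of -2.39 (-3.01 to -1.82), and it was found in 20.8% and 63.8% of cells. At 6M the shares were 46.6% and 49.5%, and the log2 ratio was -0.53. IL7R thus lay past 2-fold at 3M and inside it at 6M, where it was about equally frequent in gate cells with none of the 5 genes (46.2%) and with at least 2 (45.6%). MGP, a matrix protein, lay at -2.65, but 1 cell held 96.5% of its counts in the gate and 1 held 97.5% in CD3-positive cells. RGCC, a cell cycle regulator, lay at -1.38.

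Some tissue retention and immediate early genes were higher in the 3M gate than in CD3-positive cells. CD69, which retains lymphocytes in tissue, had 223 and 44 UMIs, 1033 against 295 CPM (log2 1.81, 1.33 to 2.31), and RGS1, a regulator of chemokine signalling, lay at 1.12. CXCR4, a chemokine receptor, lay at 1.43. Of 18 measured immediate early and dissociation response genes 4 were at least 2-fold higher, NR4A1 (2.16), BTG2 (2.44), FOSB (1.78) and KLF6 (1.19), and none lower. Over all measured genes of this comparison the shares were 10% and 3.92%. With only gate cells that had a KLRF1 UMI, 3 of 16 were higher and 1 lower. Genes high in the gate can reach the count limit through it, so the count is not read as a result. JUNB (-0.73), HSPA1A (-0.86) and DUSP1 (-0.12) lay below 0. RGS2, the other residency gene measured, lay at 0.01. CD69 belongs to the early activation genes too, and the part of dissociation in its level was not tested. No member of the T cell list reached the count limit at 3M, but by shares CD4 was in 0 gate cells and 17.0% of CD3-positive cells, ICOS in 1.89% and 40.4%, and LAT in 11.3% and 55.3%.

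**Figure D3:**
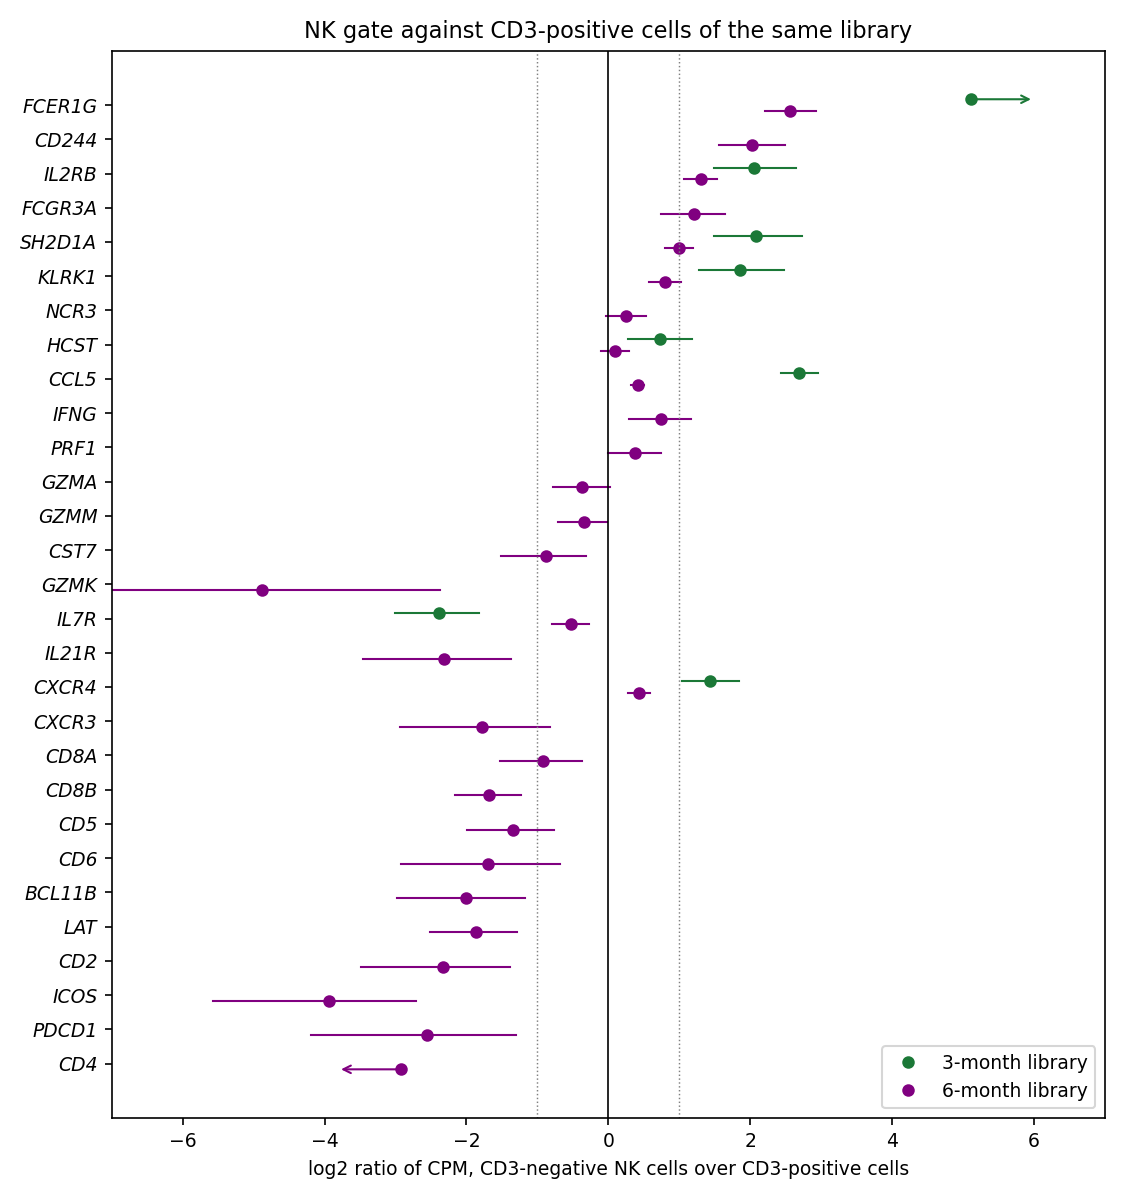
Log2 ratio of gate over CD3-positive CPM for named genes in the 6M and the 3M library, with exact 95% intervals for counting error; arrows mark bounds where a group has 0 counts and dotted lines mark 2-fold (the GZMK interval runs past the left edge, to -10.19). FCER1G, IL2RB and SH2D1A lie to the right in both libraries, and T cell genes lie to the left at 6M.

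Gate cells were not uniform in GNLY. At 3M 22 of 53 cells (41.5%) had 0 GNLY UMIs, 7 had 1 to 9 and 24 (45.3%) had 10 or more, with a median of 64 in the last and up to 196 in 1 cell. At 6M 68 of 131 (51.9%) had 0, 36 had 1 to 9 and 27 (20.6%) had 10 or more, with a median of 34 and up to 299. Median depth was 3915 UMIs without GNLY and 2734 with 10 or more at 3M, and 2732.5 and 2969 at 6M. GNLY thus ran from undetected to abundant within the gate, and its absence did not go with lower depth at 3M.

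The genes below were picked after their values were seen, and GNLY belongs to the rule, so they are descriptions. At 3M CCR7, the lymph node homing receptor, had a UMI in 50% of cells without GNLY and in 0 of the 24 with 10 or more (thinned 31.8% and 0). At 6M the shares were 13.2% and 0 (thinned 5.88% and 0). ID3, an inhibitor of E-protein transcription factors, was found in 40.9% and 4.17% at 3M (thinned 27.3% and 0), and in 33.8% and 22.2% at 6M (thinned 16.2% and 3.70%). CCR7 and ID3 were thus on the side without GNLY in both libraries.

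On the other side, HOPX, a homeodomain cofactor of effector lymphocytes, was found at 3M in 54.5% of cells without GNLY and 95.8% with 10 or more (thinned 18.2% and 70.8%). RUNX3, a transcription factor of cytotoxic cells, was found in 13.6% and 54.2% (thinned 0 and 33.3%). PRDM1, the transcription factor Blimp-1, was found in 0 and 33.3%, and S1PR5, a receptor for exit into blood, in 4.55% and 33.3%. At 6M these contrasts were smaller, HOPX at 57.4% and 70.4% (thinned 25% and 25.9%), RUNX3 at 50% and 66.7%, PRDM1 at 14.7% and 29.6% and S1PR5 at 5.88% and 11.1%. EOMES went opposite ways, 22.7% and 45.8% at 3M but 27.9% and 18.5% at 6M.

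The shares of KLRF1 and FCER1G were higher with 10 or more GNLY UMIs at 3M and lower at 6M. These classes held 22 and 24 cells at 3M and 68 and 27 at 6M, and whether the gaps exceed counting error was not tested. FCER1G was found in 81.8% of 3M cells without GNLY and 87.5% with 10 or more, and KLRF1 in 50% and 75.0%. At 6M FCER1G stood at 51.5% and 33.3% and KLRF1 at 36.8% and 29.6%. At 3M both kinds of gate cell thus carried these natural killer genes in at least 50% of cells.

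**Figure D4:**
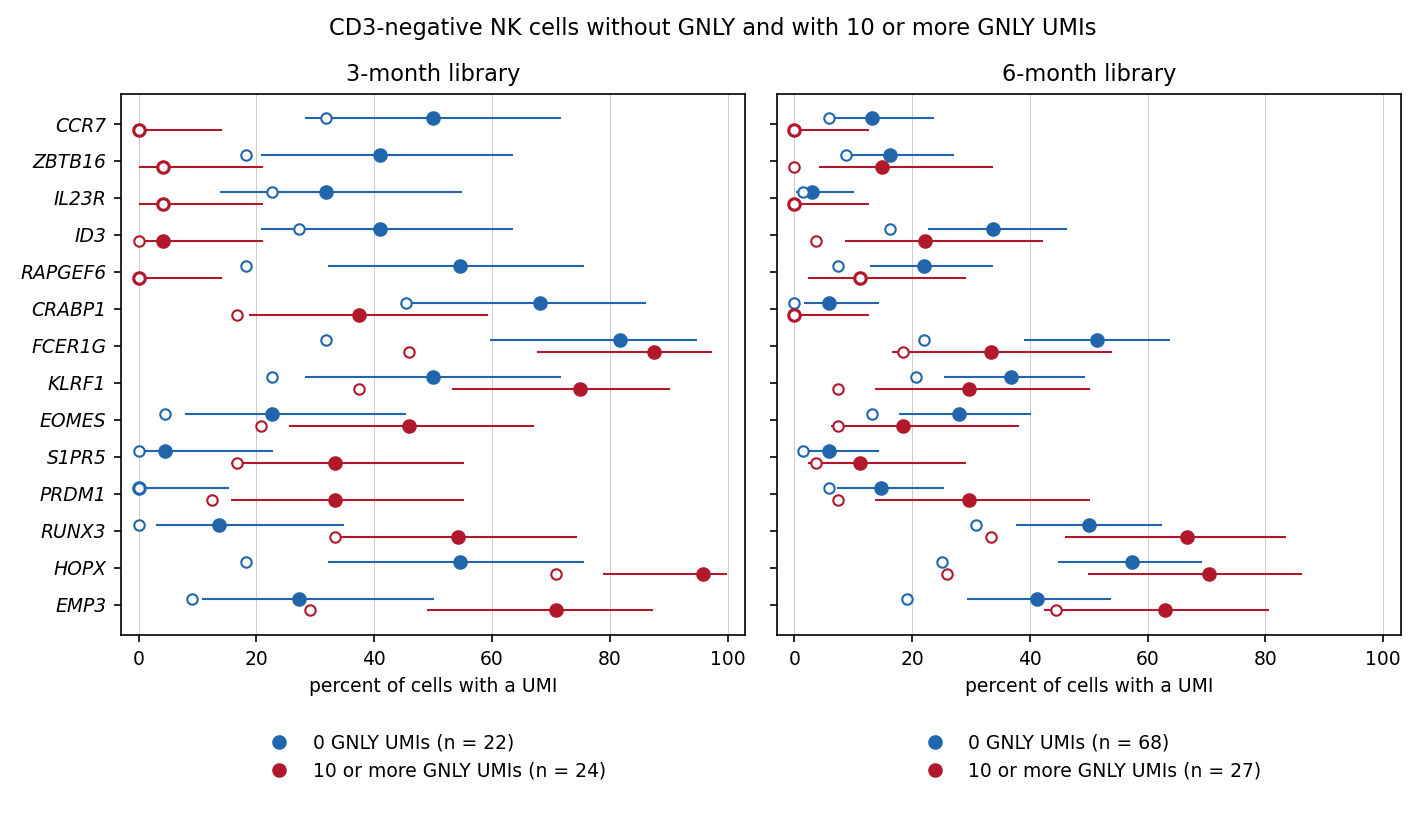
Share of gate cells with a UMI of each gene (percent) for cells with 0 and with 10 or more GNLY UMIs, per library; filled points use all UMIs with exact 95% intervals, open points use cells thinned to 1000 UMIs. CCR7 and ID3 lie higher without GNLY in both libraries, and HOPX and RUNX3 lie higher with it, with wider gaps at 3M.

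CRABP1, a cellular retinoic acid binding protein, was a gene of the 3M gate that no list held. It had a UMI in 27 of 53 gate cells (50.9%), with up to 26 UMIs in 1 cell, and in 1 of 47 CD3-positive cells with a single UMI. Its level was 686 against 6.71 CPM, a log2 ratio of 6.67 with a counting interval of 4.17 to 11.99. At 6M it was found in 6 of 131 gate cells (4.58%) with 10 UMIs in all. The 6M share was of the order seen outside the gate, 6.77% of 16315 other barcodes at 3M and 6.64% of 13122 at 6M. The highest count in 1 such barcode was 9 UMIs at 3M and 21 at 6M. Within the 3M gate CRABP1 was found in 68.2% of cells without GNLY and in 37.5% of those with 10 or more (thinned 45.5% and 16.7%).

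The gate cells of the 2 libraries were then compared, 6M over 3M. Of 943 genes measured, 95 (10.1%) were called higher and 49 (5.20%) lower at 6M, with 10.3% and 5.30% by the 2-fold limit alone and a median log2 ratio of 0.11. Because the 6M gate held the second portion described above, each value is given beside that in gate cells with at least 2 of the 5 genes, 47 and 68 cells, an alternative chosen after seeing the data. Differences that shrink under it are given as such.

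Natural killer genes were lower in the whole 6M gate, and most of those named here lay inside 2-fold in cells with at least 2 of the 5 genes. Of 9 measured markers outside the rule 5 were at least 2-fold lower, with a median of -1.04. FCER1G had 233 against 699 CPM (log2 -1.58), IL2RB 375 against 862 CPM (log2 -1.20), KLRF1 122 against 250 CPM (log2 -1.04) and KLRK1 378 against 704 CPM (log2 -0.90). In cells with at least 2 of the 5 genes these became -0.73, -0.47, -0.08 and -0.17, all inside 2-fold. KLRF1 and FCER1G helped to choose those cells, but IL2RB and KLRK1 did not. CCL5 moved from -1.48 to -0.95, PRF1 from -1.27 to -0.70 and, of the rule markers, XCL1 from -1.13 to -0.36 and KLRD1 from -1.44 to -0.71, while GNLY stayed 2-fold lower (-1.46 and -1.13). Leaving out cells above 10000 UMIs instead gave similar values, FCER1G -1.05, IL2RB -0.51, KLRF1 -0.44, KLRK1 -0.31, CCL5 -0.85, PRF1 -0.77 and GNLY -0.93, with 1 of 8 measured markers lower. Which of the alternatives goes with the difference was not tested.

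Several differences were as large in cells with at least 2 of the 5 genes. CRABP1 had 10 UMIs at 6M and 148 at 3M, 17.4 against 686 CPM, a log2 ratio of -5.30 (-6.39 to -4.38), and -4.82 in those cells. CD69 lay at -1.84 (289 against 1033 CPM) and -1.70, and RUNX3 at 1.31 (322 against 130 CPM) and 1.34. IRF1, an interferon-induced transcription factor, lay at 2.23 (436 against 92.6 CPM) and 2.07. Without cells above 10000 UMIs these 4 genes lay at -4.82, -1.01, 1.78 and 1.60. Among cells with a KLRF1 UMI they lay at -3.59, -1.24, 0.83 and 1.72. In that last reading only CD69 met the count limit. CRABP1 (7 UMIs at 6M and 67 at 3M), RUNX3 (58 and 26) and IRF1 (62 and 15) fell below it. In the readings where each met the limit, the 4 genes thus lay past 2-fold by point value. CD69 did so only just without cells above 10000 UMIs. Some intervals reached inside 2-fold. Without cells above 10000 UMIs these were -1.33 to -0.69 for CD69 and 0.88 to 2.39 for IRF1. Among cells with a KLRF1 UMI that of CD69 was -1.69 to -0.81. In cells with at least 2 of the 5 genes that of RUNX3 was 0.71 to 2.01.

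Other differences were also present in counts summed over all kept barcodes, given here for 3 genes. Such sums do not show which cells carried the difference. HSPA1A, the inducible heat shock protein, had 1866 CPM in the 6M gate and 218 in the 3M gate (log2 3.10, 2.68 to 3.55), and over all kept barcodes 908 and 168 CPM. ISG15, an interferon-induced ubiquitin-like protein, had 202 and 811 CPM in the gate (log2 -2.0) and 99.8 and 332 CPM over all barcodes. IFI6, another interferon-induced gene, had 361 and 1265 CPM in the gate (log2 -1.81) and 209 and 1433 CPM over all barcodes. For these 3 genes the difference thus had the same direction in the gate and over all barcodes.

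Some of the genes highest at 6M rest on few cells. CXCL9, an interferon-induced chemokine, had 505 UMIs at 6M and 0 at 3M, at least a log2 difference of 5.98 against a floor of 3 counts, but it was found in 10.7% of cells and 33.5% of its UMIs came from 1 cell. CST3, a protease inhibitor, lay at 2.37 with 61.6% of its UMIs in 1 cell, and at 0.91 without cells above 10000 UMIs. S100A4, a calcium-binding protein, had 132 UMIs and 1, a log2 ratio of 5.63 (3.13 to 10.95), in 20.6% of 6M gate cells. One 6M gate cell had 40285 UMIs, of which 29099 (72.2%) were LOC114108841 and 164 JCHAIN, the joining chain of secreted antibodies, and Scrublet, which marks likely doublets, did not mark it.

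**Figure D5:**
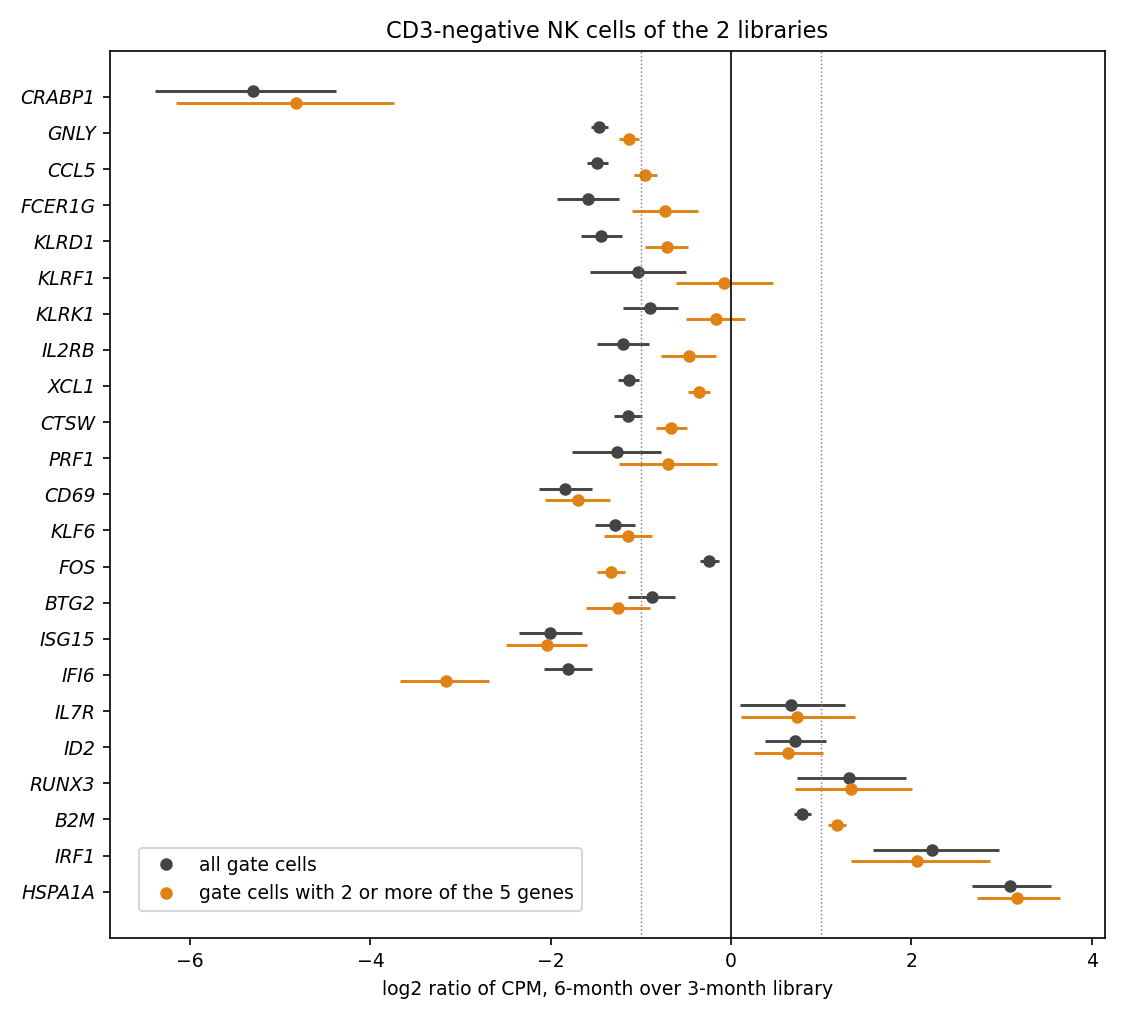
Log2 ratio of 6M over 3M CPM in gate cells, with exact 95% intervals for counting error, for all gate cells and for cells with at least 2 of the 5 genes; dotted lines mark 2-fold. CRABP1, CD69, RUNX3 and IRF1 keep their place between the 2 readings, whereas FCER1G, IL2RB, KLRF1 and KLRK1 move towards 0.

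Markers of other cell types were counted in the gate as whole lists, with sums per 1000000 UMIs of the group. Of 8 T cell markers other than CD3 in the files 6 had a UMI in the gate of each library, with CD4 and CD28 at 0, and the sum was 165 at 3M and 199 at 6M against 824 and 564 in CD3-positive cells. Cells with at least 3 of them numbered 2 and 6. Of 10 B or plasma cell markers 3 and 7 had a UMI, MS4A1 and PAX5 being among those at 0 in both libraries. Their sum was 72.6 and 563, and at 6M 83.2% of the counts of the whole list came from 1 cell. The higher 6M sum of the B or plasma list thus lay mostly in 1 cell. For the T cell markers the top cell of the 6M gate held 8.20% of the counts.

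Of 11 macrophage markers, whose C1Q members the rule limits, 5 and 10 had a UMI, with sums of 58.1 and 364, and 60.1% of the 6M counts came from 1 cell. At least 3 were found together in 0 and 6 cells. Dendritic cell markers summed to 435 and 629, with at least 3 together in 4 cells (7.55%) and 17 cells (13.0%), against 8.25% of 6M CD3-positive cells. This list had the most gate cells with 3 members at 6M among the immune lists other than the innate lymphoid one, and it includes CCR7 and IRF7, which lymphocytes also express. Of 7 mast cell and basophil markers 3 and 2 had a UMI, with sums of 19.4 and 14.7 and CPA3, HDC, TPSB2 and FCER1A at 0 in both libraries. Neutrophil markers, FCGR3A included, summed to 203 and 114.

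Among lists of the other tissue cells, endothelial markers summed to 232 and 497, and stem or folliculostellate markers to 300 and 543, with at least 3 of the latter in 5 cells (9.43%) and 8 cells (6.11%). Fibroblast or mural markers summed to 590.3 at 3M, with 91.8% of the counts in 1 cell, and 39.1 at 6M. Erythrocyte or platelet markers had 1 of 5 members with a UMI in each library. The part of these transcripts in the results was not tested.

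Innate lymphoid cells other than natural killer cells share ID2 and IL7R with this gate, so their genes were read too. Of 19 list members 15 had a UMI at 3M and 12 at 6M, and at least 3 were found in 50.9% and 51.9% of gate cells, against 40.4% and 47.3% of CD3-positive cells. The sum was 1486 and 1492 in the gate and 2870 and 1322 in CD3-positive cells. IL22, IL13, IL5 and IL17A, the effector cytokines on the list, had 0 UMIs in both gates, which in cells this shallow does not limit their expression. PRL, a hormone no lymphocyte should make, took 0.704% of the gate's UMIs at 3M and 2.17% at 6M, and 3.32% in 6M gate cells with none of the 5 genes against 1.78% in those with at least 2. Scrublet marked 2 and 7 gate cells.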

How the data were processed

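Single-cell RNA libraries of the anterior pituitary were analysed, 1 at 3 months and 1 at 6 months. The values the authors deposited are raw UMI counts, 1 matrix for each library. Cell Ranger made them, as version 5.0.0 per the submitters' processing notes and 5.0.1 per the file headers. The genome build is not given in the sources used here. Gene and barcode names, other entries without a measurement, stand in lists the authors deposited with them. Of 23141 gene identifiers, 22726 (98.2%) matched a reference table of the ARS-UI_Ramb_v3.0 assembly, used for names and neighbours only.

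Counts were summed per group and library and scaled to CPM with edgeR 4.0.16 (TMM). Intervals are exact, at 95%. A count of 0 was set to a floor of 3. Shares were repeated after thinning to 1000 UMIs. Doublets were marked with Scrublet in scanpy 1.11.5 (5.62% and 4.68% of kept barcodes) and removed only as an alternative. The ratio step was tested on simulated data. The cells and gene lists were chosen with earlier results of these data known. Named genes are the markers and list members, then up to 12 higher and 12 lower called genes per comparison, detected in 10% of cells or more and ordered by the interval bound nearer to 0; others are said to be chosen after their values were seen. Alternatives were other filters, scalings, marker limits and count limits. Some results on single genes are left out.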

Additional observations from a re-analysis of the deposited data

How the results depend on the processing

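No paired analysis was possible because each age has 1 library and no replicate numbers. The gate's share was 0.238% at 3M and 0.465% at 6M with at least 1000 genes and 2000 UMIs, 0.785% at 6M with at least 3 markers, and 0.0733% and 0.151% with T cell receptor constant genes also at 0, which left 12 and 20 cells. With cells above 10000 UMIs left out of all barcodes the 6M share was 1.77%. That alternative, the limit to cells with a KLRF1 UMI and that to cells with at least 2 of the 5 genes were chosen after seeing the data.

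Counts of called genes varied with the count limit and the cells summed; the cause was not tested. For the gate against CD3-positive cells at 6M (98 higher, 189 lower), a limit of 50 counts gave 234 and 405 and one of 200 gave 49 and 93. Constant genes at 0 gave 200 and 876, KLRF1 cells 517 lower, and 37 were higher without cells above 10000 UMIs, 24 of them called in both. At 3M (40 and 15) the count limits gave 81 and 34, and 17 and 4, constant genes at 0 gave 11 and 79, and KLRF1 cells 26 higher. Against CD3-positive cells with markers (62 and 139) they gave 178 and 275, and 24 and 54, constant genes at 0 gave 134 and 627, KLRF1 cells 372 lower, at least 3 markers 39 higher, and 27 were higher without cells above 10000 UMIs. For 6M over 3M (95 and 49) the count limits gave 211 and 95, and 48 and 21, constant genes at 0 gave 43 and 15, and KLRF1 cells 26 and 14. There 26 were lower with at least 3 markers, 15 without cells above 10000 UMIs and 21 in cells with at least 2 of the 5 genes.

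Of 5833 single-gene values under alternatives, 4547 stayed within the interval reported, 1265 moved outside it, and 21 values of called genes changed sign. A change of sign in a gene that was not called is not among the 21. The cause was not tested. At 6M these were RRAD (-0.89), CRYAB (-0.83) and SOX2 (-1.34) in KLRF1 cells, MKI67 (0.40) and TPX2 (0.042) with each cell counted equally, and GH (0.61 without Scrublet-marked barcodes, 0.12 in KLRF1 cells, 1.94 without cells above 10000 UMIs, 0.26 with each cell equal). Against CD3-positive cells with markers they were RRAD (-0.99), CRYAB (-1.01), SOX2 (-1.28), GH (0.46 and 2.23) and TPX2 (0.094). For 6M over 3M they were KLRF1 (0.045) and CADM1 (-0.33) in KLRF1 cells, CADM1 (-0.19) and ALDH1A1 (-0.20) in cells with at least 2 of the 5 genes, and PLVAP (-1.91) and ALDH1A1 (-0.034) without cells above 10000 UMIs. The comparison of the 3M gate with CD3-positive cells rests on 47 such cells, and no difference here has a replicate check.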
